A study of Mus musculus with 6 samples.

Results

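The genes described here encode the enzymes and regulators of cholesterol, fatty acid and myelin lipid synthesis, and their transcripts were measured in whole sciatic nerve. The group holds 35 genes, chosen by name, of the 39174 genes in the tables, and all 35 passed the minimum of 0.1 FPKM for testing. FPKM, a count of fragments scaled to transcript length and to the size of the library, is corrected for transcript length, so levels can be set side by side between genes. RNA was sequenced from the nerves of 3 wild-type mice, numbered 2, 4 and 5, and of 3 Plekhg5-deficient mice (Plekhg5-/-, called mutant below), numbered 2, 3 and 5. The sample records call the mice adult, the text of the study gives their age as 12 months, and neither names a treatment or a Cre driver. Plekhg5 encodes a guanine nucleotide exchange factor that activates NF-κB, and the study asked how its loss affects the myelin of peripheral nerves. Plekhg5 itself ranged from 3.65 to 5.26 FPKM in wild-type and from 0.0521 to 0.141 FPKM in mutant nerves.

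Myelin is unusually rich in lipid. Schwann cells, which wrap peripheral axons, make most of its cholesterol themselves, because little of it reaches the nerve from the blood, and they add galactolipids with very long fatty acids. The enzymes of cholesterol synthesis are switched on together by the transcription factor SREBP2, and those of fatty acid synthesis by SREBP1. Adipocytes of the tissue around a nerve also make large amounts of fatty acids. In whole-nerve RNA, fewer cells of a type and less RNA per cell cannot be told apart.

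The libraries differed in the other tissue they held. Haemoglobin took 15.98% of the summed FPKM of mutant nerve 5 and at most 2.56% of that of any other library. The summed level of 12 skeletal muscle markers ranged from 360.3 FPKM in mutant nerve 3 to 55573 FPKM in mutant nerve 5. Wild-type nerve 5 stood apart in 6 lymphocyte markers. Their summed level was 4.15, 3.75 and 154 FPKM in wild-type nerves 2, 4 and 5. In mutant nerves 2, 3 and 5 it was 2.80, 4.71 and 6.94 FPKM. The myelinating Schwann cell markers checked the tissue label. All 14 were detected in every library, with sums between 11242 and 20276 FPKM in wild-type and between 11814 and 20006 FPKM in mutant nerves. The depth in reads was not stated, and precision is known only from the 95% intervals of the authors' software. These intervals corresponded, over the 35 genes, to a median counting SD of 3.53% of the level, and the largest of the 210 values (35 genes in 6 libraries) was 26.2%, for Lss.

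With mutant nerves compared to wild-type nerves, none of the 35 genes passed an adjusted p of 0.05 in limma, which tests log2(FPKM + 1) for each gene with Benjamini-Hochberg adjustment over all 21285 genes tested. Of all genes tested, 0.0094% were called lower and 0.0282% higher at that limit. At an unadjusted p under 0.05, 1 of the 35 genes was lower and 0 were higher, 2.86% and 0% of the group, where 2.69% and 2.41% of all genes were. The single gene was Sc5d, the desaturase of the penultimate step of cholesterol synthesis. Sc5d was also the only one of the 35 genes whose 3 mutant values all lay below the 3 wild-type values, and none lay above them throughout. Among all genes, 5.88% did not overlap with lower values and 5.69% did not overlap with higher values in mutant nerves. The shares for the group were thus near or under those for all genes.

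The median log2 difference of the 35 genes was -0.13, beside 0.01 for all genes tested, and 24 of the 35 (68.6%) were below 0, beside 48.9% of all genes. In FPKM as deposited, without scaling between libraries, 29 of the 35 and 64.9% of all genes were below 0. With 1 library left out, the number of the 35 below 0 was between 15 (without mutant nerve 5) and 32 (without wild-type nerve 5), and it was 18 without wild-type nerve 4. By role, the median was -0.31 for the 6 mevalonate enzymes, -0.23 for the 10 squalene and sterol enzymes, -0.33 for the 4 genes of sterol control and transport, 0.15 for the 4 genes of fatty acid synthesis, -0.12 for the 7 desaturases and elongases and 0.03 for the 4 enzymes of myelin sphingolipids. The median standard error of a log2 difference was 0.37 for the group and 0.22 for all genes. The median of the group was 0.03 without mutant nerve 5 and -0.17 without both libraries numbered 5. Of the 35 intervals, 34 included 0. The narrowest, for Ebp, ran from -0.67 to 0.12, and the widest, for Fasn, from -1.97 to 1.78. With 3 animals against 3, the values of Fasn thus did not exclude a change of either sign within its interval.

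**Figure D1:**
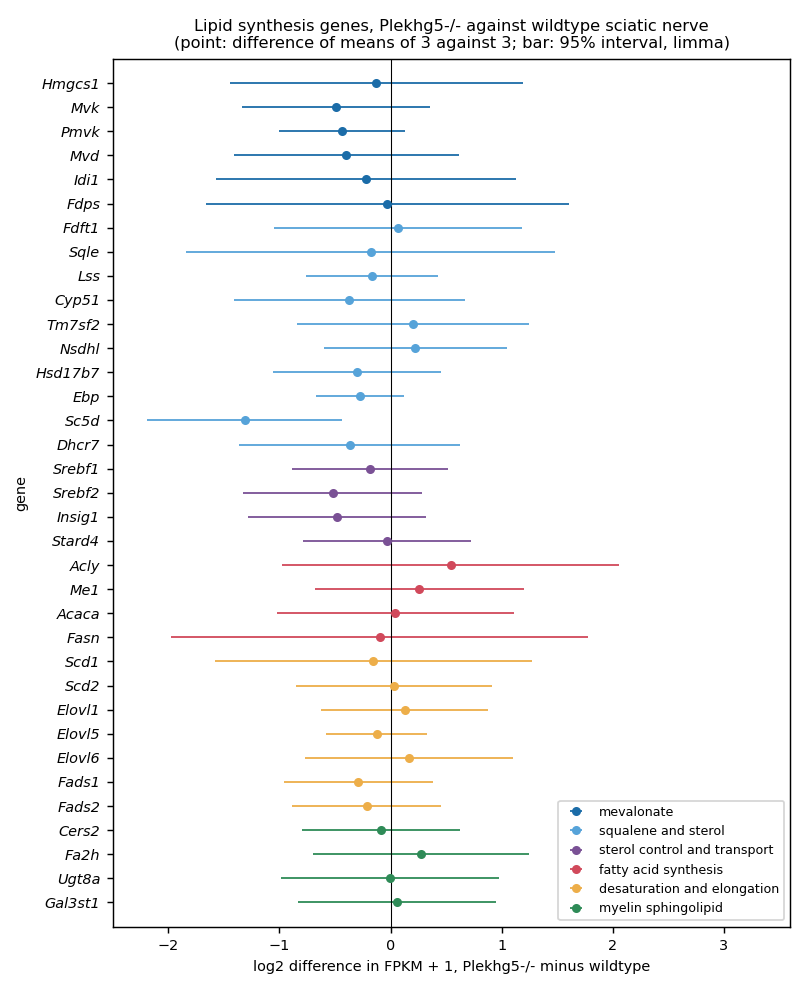
Difference in log2(FPKM + 1) between 3 mutant and 3 wild-type sciatic nerves for each of the 35 genes, grouped by role; points are differences of means and bars are 95% intervals from limma. The interval of Sc5d, from -2.20 to -0.43, is the only one that leaves out 0.

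Sc5d (ENSMUSG00000032018; GRCm38, chromosome 9, 42254177 to 42264300, with no other gene of the tables in this span) introduces a double bond into the sterol ring, between the isomerase Ebp and the reductase Dhcr7. In wild-type nerves 2, 4 and 5, Sc5d had 51.1, 69.2 and 33.2 FPKM, and in mutant nerves 2, 3 and 5 it had 19.9, 27.9 and 12.4 FPKM. The highest mutant value, in nerve 3, lay below the lowest wild-type value, in nerve 5, and the 95% intervals that the software gave for these 2 libraries (26.1 to 29.8 and 30.3 to 36.2 FPKM) did not touch. The means were 51.2 ± 18.01 FPKM for wild-type and 20.1 ± 7.76 FPKM for mutant nerves (SD, n = 3 animals each), a ratio of 2.55. The log2 difference was -1.31 with a standard error of 0.37 (unadjusted p = 0.01004, adjusted p = 0.763 from limma). An exact two-sided permutation test of this gene alone gave p = 0.1, the smallest that 3 against 3 allows. Groups of 3 without overlap always give this value, so it restates the lack of overlap and is no further support. Without both libraries numbered 5, the log2 difference was -1.30 (unadjusted p = 0.00373, adjusted p = 0.543 from limma).

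Its neighbours in the pathway differed less. Ebp, which shifts a double bond of the sterol ring and had the highest mean level of the 10 squalene and sterol enzymes (GRCm38, chromosome X, 8185329 to 8193512), had 43.6, 45.9 and 38.5 FPKM in wild-type and 32.3, 39.8 and 33.4 FPKM in mutant nerves, and the genotypes overlapped (log2 difference -0.27, standard error 0.17, adjusted p = 0.974 from limma). Dhcr7, which carries out the last reduction to cholesterol, had 13.7 ± 4.72 FPKM and 10.8 ± 4.87 FPKM in wild-type and mutant nerves (SD, n = 3 each). Nsdhl, a dehydrogenase that acts before Ebp, had 26.7 ± 9.30 and 30.9 ± 9.05 FPKM (SD, n = 3 each). Both overlapped between genotypes. The ratio of Sc5d to another gene within a library does not depend on the scaling between libraries. The ratio to Nsdhl was 1.61, 2.14 and 2.08 in wild-type nerves 2, 4 and 5 and 0.617, 0.715 and 0.587 in mutant nerves 2, 3 and 5. The ratio to Ebp was 1.17, 1.51 and 0.863 against 0.618, 0.702 and 0.372, and that to Dhcr7 was 2.97, 4.43 and 3.97 against 1.62, 1.90 and 2.34. For these 3 ratios the genotypes did not overlap (exact two-sided permutation p = 0.1 each, the smallest possible). All 3 share Sc5d, which was singled out from these same values, so they are not separate support. The ratio of Sc5d to Sqle did overlap, with 1.43, 2.74 and 3.42 in wild-type and 0.794, 0.785 and 1.92 in mutant nerves (exact two-sided permutation p = 0.2). Set against the median of the other sterol enzymes in each library, Nsdhl itself did not overlap and was higher in mutant nerves (log2 difference 0.52). By the same measure Tm7sf2 (0.51) and Fdft1 (0.36) were higher without overlap, and Sc5d (-1.24) was lower. The share of all genes without overlap was not computed for this measure, so these genes cannot be set against it.

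**Figure D2:**
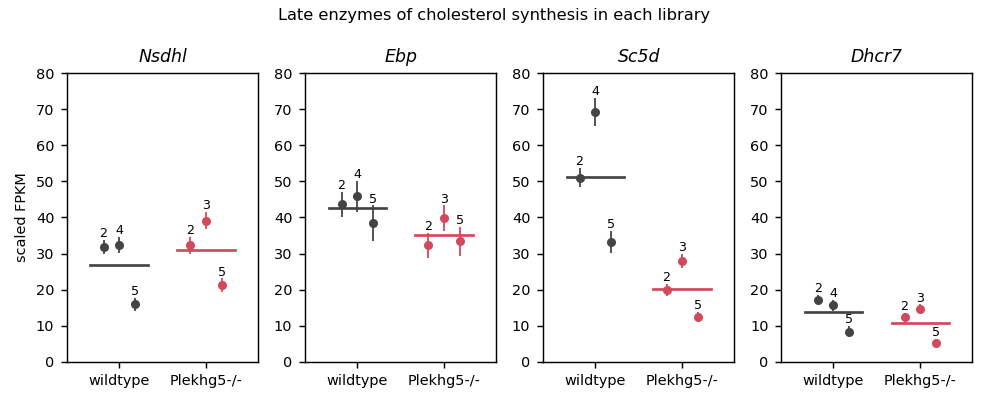
Scaled FPKM of Nsdhl, Ebp, Sc5d and Dhcr7 in the nerves of 3 wild-type and 3 mutant animals; each point is 1 library with its number and the 95% interval reported by the authors' software, and horizontal lines are means. The genotypes overlap for Nsdhl, Ebp and Dhcr7, whereas for Sc5d the mutant nerves lie between 12.4 and 27.9 FPKM and the wild-type nerves between 33.2 and 69.2 FPKM.

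Markers of other cells and tissue also differed between libraries. The summed level of 7 markers of oligodendrocytes, cells of the central nervous system that also make cholesterol, was 19.9, 4.99 and 3.35 FPKM in wild-type and 0.581, 1.47 and 1.13 FPKM in mutant nerves, with 5 of the 7 (Mog, Opalin, Ermn, Olig1 and Olig2) listed at 0 in at least 1 library. These sums did not overlap between genotypes, nor did 6 of the 7 genes, which were lower in mutant nerves. Of all genes tested, 5.88% did not overlap with lower values in mutant nerves, the share to set beside each such count here. Some of the values were near the floor. Olig2 had 0.305, 0.0477 and 0.0374 FPKM in wild-type nerves and 0 in each mutant nerve. The summed level of 6 liver markers was 64.9, 8.67 and 4.61 FPKM against 3.504, 2.81 and 5.52 FPKM, and those sums overlapped. Of the 6 liver markers, 3 (Alb, Serpina1a and Fabp1) did not overlap and were lower in each mutant nerve, with Fabp1 listed at 0 in all 3. The sums of 6 markers of neurons and astrocytes overlapped at 174, 93.5 and 29.1 FPKM against 76.8, 267 and 9.35 FPKM. Snap25, which is not particular to central neurons, led them, with 219 FPKM in mutant nerve 3. Of the 6 neuron and astrocyte markers, 2 had no overlap and were lower in mutant nerves, as Sc5d was. Gad1, an enzyme of inhibitory neurons, had 2.24, 1.83 and 2.99 FPKM against 0.0753, 0.297 and 0.358 FPKM. Slc1a2, a glutamate transporter of astrocytes, had 5.07, 5.01 and 3.27 FPKM against 0.744, 0.986 and 1.02 FPKM (adjusted p = 0.212 and 0.234 from limma). Wild-type nerve 2 had the highest sum of the oligodendrocyte and of the liver markers. Sc5d was highest in wild-type nerve 4. Without wild-type nerve 2, the log2 difference of Sc5d was -1.29 (unadjusted p = 0.0317, adjusted p = 0.933 from limma). Set against the median relative level of the myelinating Schwann cell markers, the relative level of Sc5d was 1.97, 1.48 and 1.13 in wild-type and 0.460, 0.643 and 0.492 in mutant nerves. The SD of the log2 level of Sc5d over the 6 libraries was 0.90, and it was 0.53 once divided by the median relative level of the neuron and astrocyte markers. This was not particular to Sc5d, as the SD of Sqle went from 1.03 to 0.63. The median SD went from 0.78 to 0.69 for the mevalonate enzymes and from 0.65 to 0.80 for the squalene and sterol enzymes. The share over all genes was not computed for this division. The part of other cells and tissue in the level of Sc5d was not tested.

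Letters of 3 motifs known from promoters of sterol genes were searched in the promoters of these genes. RefSeq promoters (GRCm38.p6, from 250 bases before to 50 bases after the annotated start) matched 27 of the 35 genes by symbol, and RefSeq starts can differ from those in the authors' tables. Of these 27 genes, 23 (85.2%) had a CCAAT box (CCAAT) on either strand, 21 (77.8%) a GC box (GGGCGG) and 1 (3.70%), Hmgcs1, the sterol regulatory element TCACNCCAC. Of all 27025 genes with a promoter, 41.1% had the first, 38.2% the second and 1.44% the third. The following promoters are those of Sc5d, of its upstream neighbour Ebp and of Hmgcs1, read in the direction of transcription, with the 3 motifs of either strand in capitals. Sc5d is on the minus strand (chr9:42264251-42264550), Ebp on the minus strand (chrX:8193463-8193762) and Hmgcs1 on the plus strand (chr13:119690101-119690400).
Sc5d: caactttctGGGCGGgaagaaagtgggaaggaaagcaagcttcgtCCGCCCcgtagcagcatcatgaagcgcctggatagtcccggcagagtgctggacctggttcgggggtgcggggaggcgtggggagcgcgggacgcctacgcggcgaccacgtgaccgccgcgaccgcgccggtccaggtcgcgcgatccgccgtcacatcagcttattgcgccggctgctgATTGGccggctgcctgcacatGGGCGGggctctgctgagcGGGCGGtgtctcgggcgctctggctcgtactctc
Ebp: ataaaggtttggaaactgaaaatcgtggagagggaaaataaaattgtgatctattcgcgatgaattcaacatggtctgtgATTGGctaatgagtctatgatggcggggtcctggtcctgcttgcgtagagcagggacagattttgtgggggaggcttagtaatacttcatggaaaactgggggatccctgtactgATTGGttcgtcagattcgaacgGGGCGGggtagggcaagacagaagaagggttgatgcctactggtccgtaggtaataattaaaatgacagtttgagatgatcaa
Hmgcs1: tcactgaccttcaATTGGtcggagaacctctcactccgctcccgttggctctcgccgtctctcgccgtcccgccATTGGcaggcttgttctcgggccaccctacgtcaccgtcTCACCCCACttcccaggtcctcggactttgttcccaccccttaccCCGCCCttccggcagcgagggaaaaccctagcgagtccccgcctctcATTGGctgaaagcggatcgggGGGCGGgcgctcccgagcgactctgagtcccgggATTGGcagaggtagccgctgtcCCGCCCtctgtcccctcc
The window of Sc5d held 1 CCAAT box and 4 GC boxes, that of Ebp 2 and 1, and that of Hmgcs1 4 and 3 beside the sterol regulatory element. A match describes these letters only and is not evidence of binding.

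The other 15 sterol enzymes had log2 differences between -0.49 and 0.22, with adjusted p-values between 0.974 and 0.999 from limma. Hmgcs1, which makes HMG-CoA and had the highest level of the mevalonate enzymes (GRCm38, chromosome 13, 119690462 to 119708086), had 60.9, 74.0 and 27.1 FPKM in wild-type and 60.1, 72.6 and 21.4 FPKM in mutant nerves. Sqle, the squalene epoxidase, had 35.6, 25.3 and 9.72 FPKM against 25.1, 35.6 and 6.46 FPKM. Fdps, which makes farnesyl diphosphate, had 43.0, 32.9 and 8.82 FPKM against 26.5, 41.8 and 10.7 FPKM. In each of these genes the low values were those of the libraries numbered 5, in both genotypes.

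This order of libraries recurred along the pathway. Both libraries numbered 5 lay below the other 4 in 11 of the 16 sterol enzymes (68.8%), in 3 of the 4 genes of sterol control and transport and in 17% of all genes tested, a grouping that was chosen after the values had been seen. The median level of the 6 mevalonate enzymes, relative to each gene's mean over the 6 libraries, was 1.47, 1.21 and 0.544 in wild-type nerves 2, 4 and 5 and 0.912, 1.33 and 0.439 in mutant nerves 2, 3 and 5. For the 10 squalene and sterol enzymes it was 1.34, 1.23 and 0.619 against 1.01, 1.18 and 0.587. The spread within a genotype was therefore larger than the difference between genotypes. Markers of macrophages had the opposite order, with summed levels of 73.6, 99.4 and 182 FPKM in wild-type and 73.5, 84.5 and 197 FPKM in mutant nerves over 7 genes. The summed level of the neuron and astrocyte markers was lowest in nerve 5 of each genotype, although only 2 of the 6 had both libraries numbered 5 below the other 4. The part of these cells in the levels of the sterol enzymes was not tested. The sterol enzymes did not all vary to the same degree. The ratio of the highest to the lowest library was 5.57 for Sc5d and 5.51 for Sqle, 4.87 for Fdps, 3.70 for Mvd, a decarboxylase of the mevalonate branch, 2.14 for the lanosterol synthase Lss and 1.42 for Ebp.

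The remaining mevalonate enzymes were lower in level than Hmgcs1 and Fdps. Idi1, an isomerase of isopentenyl diphosphate, had 20.9 ± 10.9 and 17.3 ± 8.54 FPKM (SD, n = 3 each) in wild-type and mutant nerves. The kinase Mvk had 13.2 ± 3.70 and 9.48 ± 4.12 FPKM and the kinase Pmvk 9.34 ± 2.16 and 6.62 ± 1.46 FPKM (SD, n = 3 each), and Mvd had 4.24 ± 2.10 and 2.98 ± 1.75 FPKM (SD, n = 3 each). Mvk had the lowest log2 difference of the 15 (-0.49, standard error 0.35) and Pmvk the next (-0.43, standard error 0.24), with overlapping genotypes for both. Between squalene and Ebp, the squalene synthase Fdft1 had 29.1 ± 13.4 and 29.9 ± 12.6 FPKM (SD, n = 3 each). Cyp51, which removes a methyl group from lanosterol, had 20.6, 22.3 and 7.68 FPKM in wild-type and 10.8, 16.8 and 8.63 FPKM in mutant nerves. The ketoreductase Hsd17b7 had 9.88 ± 3.57 and 7.76 ± 2.47 FPKM, the reductase Tm7sf2 7.97 ± 3.53 and 9.63 ± 5.11 FPKM, and Lss 3.38 ± 0.591 and 2.97 ± 0.948 FPKM (SD, n = 3 each). Fdft1, Tm7sf2 and Nsdhl were the only sterol enzymes with a log2 difference above 0, at 0.07, 0.20 and 0.22, and the difference of Fdft1 was below 0 in FPKM as deposited. Fdft1 overlaps Ctsb and Tm7sf2 overlaps Vps51, and the strand setting of the quantification was not stated, so their values may include fragments of those genes.

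**Figure D3:**
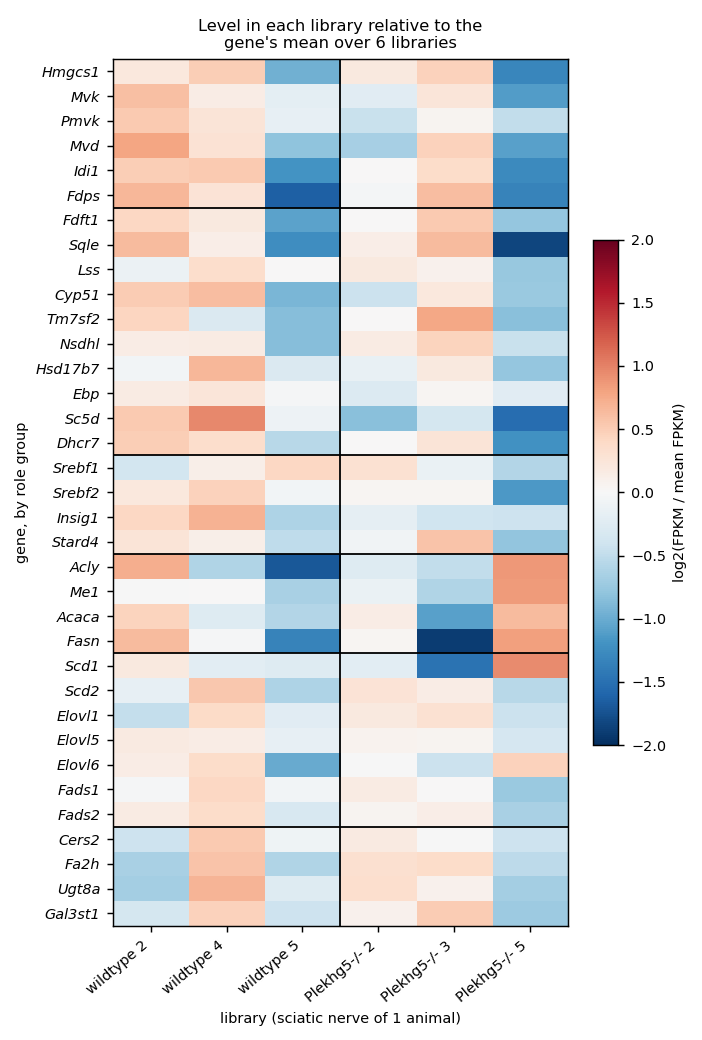
Level of each of the 35 genes in each of the 6 libraries as log2 of its FPKM over its mean FPKM in the 6 libraries, with black lines between role groups and between genotypes. Most sterol enzymes are blue in wild-type nerve 5 and mutant nerve 5, the genes of fatty acid synthesis are red in mutant nerve 5, and Sc5d is the single row in which each mutant library is below each wild-type library.

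None of the 4 genes of sterol control and transport passed an adjusted or an unadjusted p of 0.05 in limma. Srebf1, which encodes SREBP1 and had the highest level of these 4 genes (GRCm38, chromosome 11, 60199089 to 60222581, overlapping Rai1), had 25.4, 35.7 and 43.6 FPKM in wild-type and 40.7, 29.8 and 21.8 FPKM in mutant nerves (log2 difference -0.19, standard error 0.29). Srebf2, which encodes SREBP2, had 21.9 ± 3.94 and 15.7 ± 6.23 FPKM (SD, n = 3 each), with 8.51 FPKM in mutant nerve 5 (log2 difference -0.52, standard error 0.34, 95% interval -1.32 to 0.28). Insig1, which holds the precursors of both factors in the endoplasmic reticulum, had 35.8, 43.6 and 17.5 FPKM in wild-type and 23.7, 20.4 and 20.2 FPKM in mutant nerves. The wild-type values of Insig1 thus lay on both sides of the mutant ones (log2 difference -0.48, standard error 0.33). Stard4, a carrier of cholesterol within the cell, had 3.58 ± 0.918 and 3.62 ± 1.64 FPKM (SD, n = 3 each). Adjusted p-values from limma were between 0.974 and 0.999 for these 4 genes.

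The genes of fatty acid synthesis followed another order of libraries. Fasn, the synthase that builds palmitate and the most abundant of the 4 (GRCm38, chromosome 11, 120805940 to 120824178), had 360.5, 229.7 and 92.2 FPKM in wild-type and 239.5, 62.5 and 413 FPKM in mutant nerves. Acly, which supplies acetyl-CoA from citrate, had 91.6, 36.5 and 17.0 FPKM against 46.1, 39.4 and 100.4 FPKM. Acaca, the carboxylase that makes malonyl-CoA, had 11.8 ± 4.54 and 13.0 ± 6.76 FPKM, and Me1, which supplies NADPH, had 75.1 ± 17.9 and 96.2 ± 51.1 FPKM (SD, n = 3 each). All 4 genes were highest in mutant nerve 5, where 22.6% of all genes tested had their highest value. Their log2 differences ran from -0.10 for Fasn to 0.54 for Acly, with standard errors between 0.39 and 0.78 and adjusted p-values between 0.977 and 0.999 from limma. Without both libraries numbered 5, the differences of all 4 were below 0.

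The stearoyl-CoA desaturase Scd1 (GRCm38, chromosome 19, 44394451 to 44407709), which introduces a double bond into saturated fatty acids, was the most abundant of the 35 genes. Its level was 1081, 816 and 794 FPKM in wild-type and 815, 341 and 1826 FPKM in mutant nerves. Both the highest and the lowest library were mutant (log2 difference -0.15, standard error 0.60). Scd2, the close paralog of Scd1, had 241, 394 and 177 FPKM against 327, 298 and 184 FPKM (log2 difference 0.03, standard error 0.37), and reads from stretches that the paralogs share may have been assigned to either. Of 10 markers of white adipocytes, 7 shared their highest and lowest library with Scd1. So did 11 of 12 skeletal muscle markers, 7 of 7 erythroid markers and 5.95% of all genes tested, so this order was not particular to adipocyte markers. Of the white adipocyte markers, 3 had another order. Plin1, Cidec and Lep were highest in wild-type nerve 4, and Lep was lowest in mutant nerve 5, at 0.273 FPKM. The median relative level of the 10 white adipocyte markers was 0.892, 1.03 and 1.06 in wild-type and 0.793, 0.330 and 1.71 in mutant nerves. Adipoq, which encodes the adipocyte hormone adiponectin, had 538.9 FPKM in mutant nerve 5 and 133.1 FPKM in mutant nerve 3, its highest and lowest values. The SD of the log2 level over the 6 libraries was 0.79 for Scd1 and 0.27 once each level was divided by the median relative level of these markers. It changed from 0.65 to 0.53 for Acaca, from 1.09 to 0.75 for Fasn, from 0.54 to 0.56 for Me1 and from 0.95 to 1.06 for Acly. The SD was smaller per adipocyte marker level in 3 of the 35 genes (8.57%). Over the 14806 genes that averaged 1 FPKM or more and were above 0 in each library, it was smaller in 9.30%, a share near that of the group. In wild-type nerve 2, the relative level of the genes of fatty acid synthesis was 1.46, beside 0.892 for the white and 2.02 for the 5 brown adipocyte markers. The part of adipocyte RNA in these values was not tested.

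**Figure D4:**
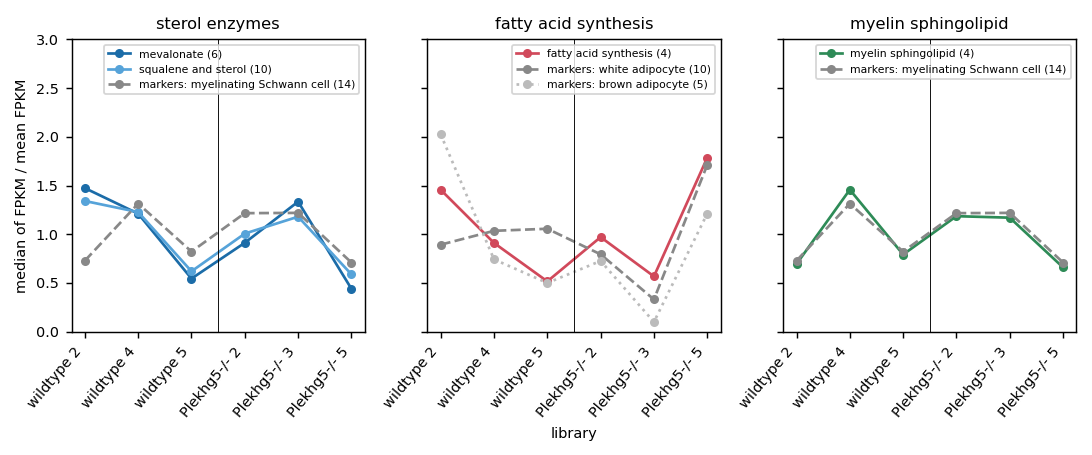
Median over the genes of a list of FPKM relative to each gene's mean over 6 libraries, for the 6 libraries on the horizontal axis; solid lines are role groups, broken lines are marker lists, and the number of genes is in parentheses. The myelin sphingolipid enzymes lie close to the Schwann cell markers in each library, with 1.46 and 1.31 in wild-type nerve 4, whereas the sterol enzymes lie above them in wild-type nerve 2.

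The enzymes of myelin sphingolipids were the group in which the libraries differed most like the Schwann cell markers. Cers2, the ceramide synthase for very long acyl chains (GRCm38, chromosome 3, 95314792 to 95323592, overlapping Setdb1 and 2 other annotated genes), had 142, 271 and 179 FPKM in wild-type and 213, 188 and 142 FPKM in mutant nerves. Fa2h, which hydroxylates their fatty acids, had 75.6, 175 and 77.6 FPKM against 147, 152 and 82.1 FPKM. Ugt8a, which makes galactosylceramide, had 43.1, 110.0 and 57.6 FPKM against 86.8, 72.7 and 42.9 FPKM. Gal3st1, which makes sulfatide from it, had 24.1, 42.6 and 23.0 FPKM against 32.7, 43.9 and 18.6 FPKM. Cers2, Fa2h and Ugt8a were highest in wild-type nerve 4 and Gal3st1 in mutant nerve 3, and all 4 genes overlapped between genotypes. The log2 differences were -0.09 for Cers2, 0.27 for Fa2h, -0.0044 for Ugt8a and 0.06 for Gal3st1, with standard errors between 0.30 and 0.41 and adjusted p-values between 0.980 and 0.99985 from limma. The 95% interval of Ugt8a ran from -0.98 to 0.98.

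The median relative level of the 4 sphingolipid enzymes was 0.694, 1.46 and 0.791 in wild-type and 1.19, 1.17 and 0.659 in mutant nerves, and that of the 14 Schwann cell markers was 0.728, 1.31 and 0.822 against 1.22, 1.22 and 0.709. Divided by the level of the markers in each library, the SD of the log2 level was between 0.18 and 0.20 for these 4 enzymes, where it had been between 0.36 and 0.56. The elongase Elovl1, which extends very long fatty acids and had 169.9, 309 and 202 FPKM in wild-type and 269.5, 293 and 175 FPKM in mutant nerves, had an SD of 0.38 before and 0.057 after this division. For Scd2, the SD was 0.47 before and 0.22 after. Of the 35 genes, 5 (14.3%) had an SD under 0.2 per Schwann cell marker level, namely Elovl1 and the 4 sphingolipid enzymes, beside 1.43% of the 14806 genes, a limit that was set after the values had been seen. The log2 difference between genotypes per marker level was -0.01 for Elovl1 and between -0.23 and 0.14 for the 4 enzymes. These markers and genes were read from the same libraries, and the likeness is given as a description over 6 libraries.

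**Figure D5:**
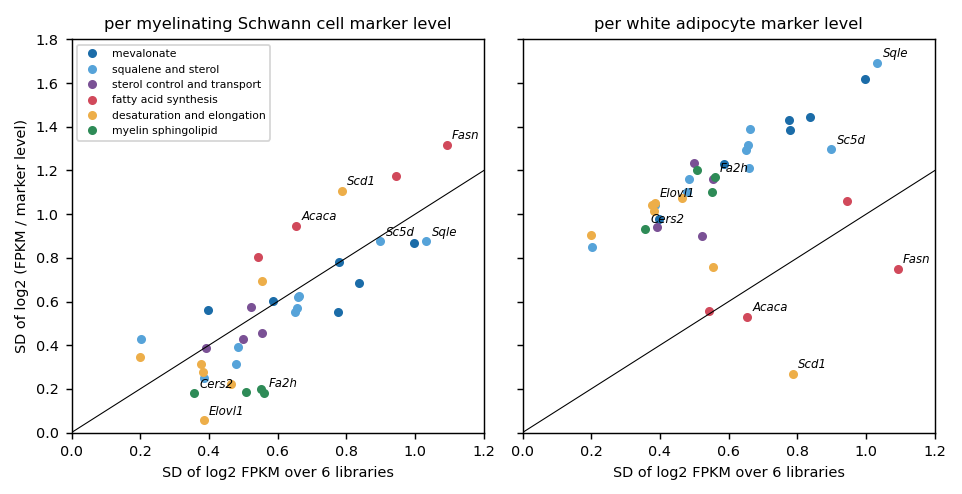
SD over 6 libraries of the log2 FPKM of each of the 35 genes (horizontal) against the SD of the log2 ratio of its FPKM to the median relative level of 14 myelinating Schwann cell markers (left, vertical) or of 10 white adipocyte markers (right, vertical); the line marks equal values. Elovl1 and the 4 sphingolipid enzymes lie at or below 0.20 on the left, and Scd1, at 0.27, is the lowest point on the right.

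The sterol enzymes followed the Schwann cell markers less closely. Per Schwann cell marker level, the median SD was 0.64 for the mevalonate enzymes, from 0.78 before, and 0.56 for the squalene and sterol enzymes, from 0.65 before. For Sc5d the SD was 0.90 before and 0.88 after the division. In wild-type nerve 2 the sterol enzymes were high (1.47 and 1.34) while the markers were low (0.728). Elovl5, an elongase of polyunsaturated fatty acids, had 46.2 ± 5.89 and 42.5 ± 6.36 FPKM, and the desaturases Fads1 and Fads2, which act on the same fatty acids, had 72.4 ± 13.7 and 60.4 ± 18.2 FPKM and 36.4 ± 8.51 and 31.5 ± 8.56 FPKM (SD, n = 3 each). Elovl6, which extends palmitate, had 19.7 ± 8.47 and 21.3 ± 6.52 FPKM (SD, n = 3 each) and was highest in mutant nerve 5. Adjusted p-values for the 7 desaturases and elongases were between 0.974 and 0.999 from limma.

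Further genes of the same pathways were compared to see whether the pattern went beyond the 35. Of 65 such genes in 4 lists, 64 passed the minimum level. Of the 64, 0 passed an adjusted p of 0.05, and at an unadjusted p under 0.05 in limma 1 was lower (1.56%) and 0 were higher. The single gene was Por, the reductase that passes electrons to Cyp51 and the squalene epoxidase (GRCm38, chromosome 5, 135670033 to 135735326), with 23.3, 35.2 and 30.8 FPKM in wild-type and 20.5, 16.9 and 21.0 FPKM in mutant nerves (log2 difference -0.57, standard error 0.21, unadjusted p = 0.0284, adjusted p = 0.941 from limma). Its genotypes did not overlap. The same held for Arsa, which degrades sulfatide, with lower values in mutant nerves, and, with higher values, for the lipid carrier Apod, the cholesterol exporter Abca1, the ubiquitin ligase Mylip and Sptlc1, a subunit of the first enzyme of sphingolipid synthesis. Por and Arsa were 3.12% and the other 4 were 6.25% of the 64, shares near those of all genes.

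Among the other genes of sterol synthesis and sensing, the median log2 difference was -0.21 over 12 genes. The most abundant were Cyb5r3, a reductase that supplies electrons, at 235 ± 38.7 and 197 ± 42.5 FPKM, and the demethylating oxidase Msmo1, at 111 ± 30.9 and 103 ± 64.0 FPKM (SD, n = 3 each). Msmo1 was lowest in wild-type nerve 5 (76.1 FPKM) and mutant nerve 5 (44.5 FPKM) within its genotype, as most sterol enzymes were. The genes of sterol uptake, efflux and storage had a median of -0.09 over 12 genes. Apod was the most abundant, at 5086, 9001 and 8274 FPKM in wild-type and 9966, 11383 and 12533 FPKM in mutant nerves (log2 difference 0.64, standard error 0.51, adjusted p = 0.974 from limma). Lrp1, an endocytic receptor, had 105 ± 31.3 and 80.8 ± 17.2 FPKM (SD, n = 3 each).

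The other genes of fatty acid synthesis and activation had a median log2 difference of 0.17 over 21 genes, with Tecr, a reductase of the elongation cycle, at 293 ± 46.2 and 369.9 ± 98.3 FPKM (SD, n = 3 each). Thrsp, a lipogenic factor of adipocytes, had 187, 96.2 and 118 FPKM in wild-type and 128, 33.2 and 378 FPKM in mutant nerves, and so was lowest in nerve 3 and highest in nerve 5, as Scd1 and Fasn were. The other genes of sphingolipids and ether lipids had a median of 0.07 over 19 genes. The most abundant were Psap, the precursor of the saposins, at 323 ± 30.4 and 288 ± 15.8 FPKM, and Degs1, the desaturase that makes ceramide, at 155 ± 47.0 and 164 ± 44.4 FPKM (SD, n = 3 each). Of the genes in these 2 lists, 0 passed an adjusted or an unadjusted p of 0.05 in limma.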

How the data were processed

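RNA of whole sciatic nerves from 3 wild-type and 3 Plekhg5-deficient mice was made into libraries with the SENSE mRNA-Seq kit V2 (Lexogen) and sequenced on a NextSeq instrument. The authors trimmed and checked the reads, with Trim Galore 0.4.0 and FastQC 0.10.1 named in the submitters' processing notes, mapped them with STAR to GRCm38, and deposited FPKM values per gene from Cufflinks 2.2.1 with 95% intervals, 1 table per library. The tables hold no counts, values were not scaled between libraries by any step named in the sources used here, and the annotation release, strand setting and depth are not given there. Unequal use of a library by blood or muscle RNA therefore lowers the FPKM of all other genes in it.

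Here, repeated rows of 19 identifiers were summed, and each library was divided by its median-of-ratios factor over 19217 genes (0.745 to 1.12). Genes that averaged 0.1 FPKM or more in one genotype or the other, the limit of the study for expressed genes, entered a limma 3.58.1 fit in R 4.3.3 of log2(FPKM + 1) on genotype alone with a variance trend, and p-values were adjusted by Benjamini-Hochberg over all 21285 genes. Log2 differences are on this scale, which understates changes of low genes. The fit was run on simulated libraries of this design with separate noise for each gene. These held no differences shared by the genes of a library, so they do not show how the fit behaves with such differences. Means and SD are of scaled FPKM. The relative level of a list in a library is the median over its genes of FPKM divided by the mean of that gene over 6 libraries. Exact permutation tests used scipy 1.17.1, and figures matplotlib 3.10.9. Promoter sequences are from RefSeq (GRCm38.p6). Gene names were matched by symbol, and 5 symbols of the further lists by identifier.

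The 35 genes and all lists were chosen with earlier results of these data known. All 35 are reported, with each library's value for genes at an unadjusted p under 0.05, for genes without overlap and for the most abundant of each role group, and of the further lists the 2 most abundant genes and those that passed. Other genes given by library, and Por, were chosen after their values were seen. Alternatives were other scalings, pseudocounts, filters and variance models, a replicate block, and leaving out libraries.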

Additional observations from a re-analysis of the deposited data

How the results depend on the processing

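Under 18 alternatives, 0 of the 35 genes passed an adjusted p of 0.05 from limma, and 0 were higher at an unadjusted p under 0.05. The median log2 difference of the group was between -0.35 (without wild-type nerve 5) and 0.03 (without mutant nerve 5), around -0.13 with all libraries. The log2 difference of Sc5d was below 0 under each alternative, between -1.59 and -1.02, with an unadjusted p between 0.00106 and 0.0364 and an adjusted p between 0.140 and 0.99966 from limma. In 15 of the 35 genes the sign of the difference turned without mutant nerve 5, and in 10 without both libraries numbered 5. Of the 630 values of single genes, 3 moved by at least 1 SD: Ebp was at -0.44 in FPKM as deposited, and Me1 and Elovl6 were at -0.36 and -0.44 without both libraries numbered 5. Of the 108 role group medians, 1 did, at 0.23 for the desaturases and elongases under the replicate block.

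The number of genes lower at an unadjusted p, 1 with all libraries, was 4 with array weights (Pmvk, Ebp, Sc5d and Insig1), 2 without both libraries numbered 5 (Sc5d and Insig1), 2 with a replicate block over numbers 2 and 5 (Mvk and Sc5d), and between 1 and 4 when 1 library was left out, with 4 without wild-type nerve 5 (Pmvk, Cyp51, Sc5d and Insig1). Over all genes, 2 were lower and 6 higher at an adjusted p under 0.05. The number lower was 1 with a pseudocount of 0.1, 1 with a minimum of 1 FPKM, 1 with a robust variance, 0 with no filter, 8 with array weights, 0 with the block, 0 without both libraries numbered 5, and 0 whichever single library was left out. The number higher was 2 with no filter, 14 with array weights and 0 with the block, and between 0 (without wild-type nerve 4) and 8 (without mutant nerve 5) when 1 library was left out. The causes were not tested. At an unadjusted p under 0.05 from limma the main fit had 573 lower and 514 higher genes. Whether the 2 shared numbers pair nerves could not be told from the values. Over genes, deviations from the group means correlated at r = 0.073 for the nerves numbered 2. They correlated at r = 0.58 for those numbered 5, the highest of any wild-type and mutant nerve, while wild-type nerve 4 and mutant nerve 2 gave r = 0.457. Deviations within a group of 3 depend on each other, so these correlations cannot decide the question. With 3 nerves a genotype and no counts, depth could not be weighed, and wild-type nerve 5 had the widest intervals, a median SD of 6.39% for genes above 5 FPKM against 4.16% in wild-type nerve 2.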
